A study of Mus musculus with 4 samples.

Results

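Tenascins, periostin, dermatopontin and related matrix proteins were examined as 8 genes out of the 24421 rows of a count table from mouse knee cartilage. They are Tnn, Tnc and Tnxb (tenascins), Postn and Tgfbi (proteins with fasciclin domains), Sparc, Dpt and Clec3b. The genes were picked by name as matricellular and repair-matrix proteins, and also because several were already known to be higher in the operated knees of these same mice. The difference between operated and sham knees was thus used in the choice, and it is given below as a description with no test.

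Matricellular proteins are secreted into the matrix but build little of it. They bind collagen fibres, growth factors and cell-surface integrins, and they are typically made during development, after injury and under changed mechanical load. Tenascins carry a fibrinogen-like globe at their end, periostin and its relative Tgfbi bind collagen through fasciclin domains, and dermatopontin is a small protein that joins decorin and collagen fibrils.

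Superficial-zone cartilage was taken from the medial femoral condyle 8 weeks after surgery in mice of the strain C57BL/6J. In destabilization of the medial meniscus (DMM) the meniscus loses its anchoring ligament and the joint becomes unstable, a common model of osteoarthritis; sham surgery leaves the ligament intact. The DMM knee and the sham knee of 2 mice, M04 and M05, were sequenced with 1 library per knee, so there were 4 libraries. Age is not stated in the sources used here, nor whether knees were pooled. Each sample's genotype field reads wild type, but the series text writes KO in the names of the M05 samples and names no gene; values of M05 and M04 are therefore compared as those of 2 animals. The free-text notes of both sham samples mention a DMM-operated knee, and the titles and treatment fields were followed instead. Totals ran from 12712425 to 19336628 counts per library. The defining cartilage genes were present in all 4 libraries, since all 10 chondrocyte markers checked had counts in each. Their summed level was lowest in the sham knee of M05, at 1007 CPM (TMM-normalised counts scaled to a common library total) against 3517 to 4886 CPM in the other libraries. Haemoglobin and other red-cell markers summed to 118600 to 205400 CPM, and neutrophil markers to 37670 to 63640 CPM. Osteoblast markers summed to 5202 to 7015 CPM, above the chondrocyte sum of the same library in each case. Most of that sum was Col1a1, at 3473 to 5340 CPM, which is also listed among the matrix partners below. The comparison of the sums thus leans on that gene and does not rank the cell types. The levels below are thus those of a mixed sample and not of cartilage cells alone. In bulk tissue, fewer cells of a type and less RNA per cell cannot be told apart.

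The 8 genes spanned more than 3 orders of magnitude in level. Compared per length, in the authors' FPKM (fragments per kilobase of transcript, scaled to depth), Sparc lay between 945 and 1634 FPKM and had rank 112 by mean FPKM among the 24346 genes of that table. Tgfbi followed with 77.6 to 95.4 FPKM, then Tnc with 20.5 to 30.4 FPKM and Postn with 5.47 to 19.1 FPKM. The ranges of these 4 genes did not overlap. Below them, Dpt held 1.80 to 11.8 FPKM, Clec3b 0.892 to 8.21 FPKM, Tnn 0.136 to 2.22 FPKM and Tnxb 0.163 to 0.75 FPKM. Each of these overlapped its neighbour in the order. Postn and Dpt, Dpt and Clec3b, and Tnn and Tnxb changed order between libraries, so these pairs cannot be ranked apart. Clec3b lay above Tnn in each of the 4 libraries. It had 0.892 against 0.136 FPKM in the sham knee of M05, and 8.21 against 2.22 FPKM in the DMM knee of M04. All 8 genes were counted in every library, and all 8 passed the filter on low counts.

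**Figure D1:**
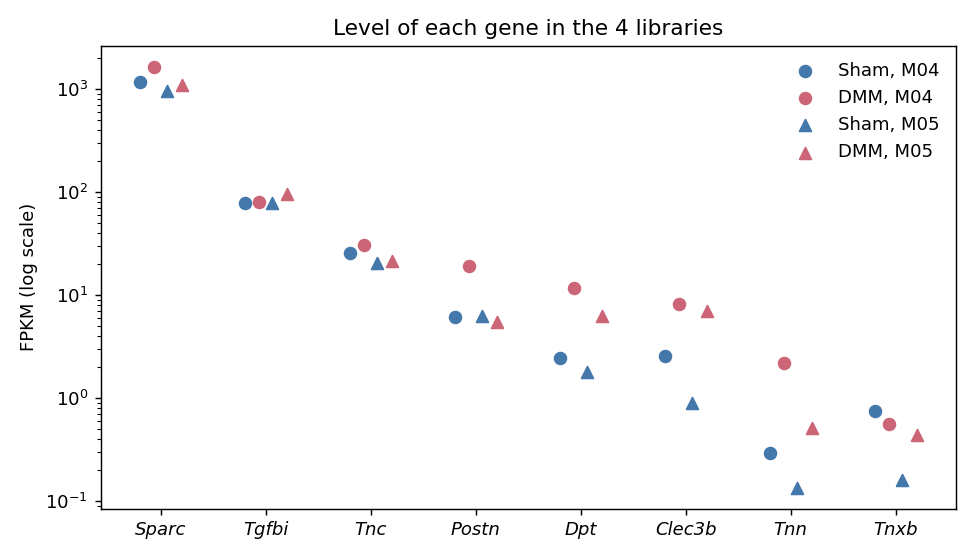
FPKM (log axis) of the 8 genes in each of the 4 libraries, ordered by mean level; colour marks the surgery and shape the mouse. Sparc stands far above the others at 945 to 1634 FPKM. Both DMM points lie above both sham points for Dpt, Clec3b and Tnn, and by little for Tgfbi.

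Among the tenascins, Tnn had the largest fitted change of the 8 genes. Tnn encodes tenascin-W, a tenascin of bone-forming and remodelling connective tissue that is scarce in most adult tissues. Its counts were 24 in the sham and 196 in the DMM knee of M04, against 13 and 35 for M05. Normalised for depth, this was 1.78 and 13.1 CPM in M04, and 0.762 and 2.87 CPM in M05. Both DMM knees were above both sham knees, and the DMM knee of M04 stood well above the other 3 libraries. The log2 ratio of DMM to sham within a mouse was 2.79 in M04 and 1.74 in M05, and the fitted log2 fold change over both was 2.47. The sham count of M05 has an exact 95% Poisson interval of 0.406 to 1.30 CPM and that of M04 of 1.14 to 2.65 CPM. All such intervals cover counting error only.

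Tnc, the tenascin that appears in wounds and in loaded tendon, ligament and joint tissue, was expressed at a much higher level and hardly differed between knees. It stood at 178 CPM in the sham and 212 CPM in the DMM knee of M04, against 142 and 145 CPM for M05. The DMM knee of M05 was below the sham knee of M04, so the groups overlapped. The ratios were 0.26 and 0.03 in M04 and M05. Tnxb encodes tenascin-X, which is associated with collagen fibrils in skin and other connective tissue. It had 6.96 and 5.28 CPM in the sham and DMM knee of M04, against 1.52 and 4.11 CPM for M05. Its ratios had opposite signs, -0.39 in M04 and 1.35 in M05, and the sham knee of M05 stood apart as the lowest library. An annotated gene on the other strand overlaps exons of Tnc (8030451A03Rik) and of Tnxb (Cyp21a2-ps), and reads from the opposite strand cannot be told apart here.

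Of the fasciclin-domain proteins, Postn differed between the knees of 1 mouse, and Tgfbi was nearly level in both. Postn encodes periostin, a protein of periosteum and ligament that binds collagen and aids its cross-linking. It had 18 CPM in the sham and 56 CPM in the DMM knee of M04, but 18.5 and 16.2 CPM in those of M05. The DMM knee of M04 was thus the 1 high library, and the other 3 lay within 16.2 to 18.5 CPM. The ratios were 1.63 in M04 and -0.19 in M05. The fitted log2 fold change of 0.75 became -0.17 without the DMM library of M04. Tgfbi, a TGF-beta-induced protein that binds collagens and integrins, had 192 and 200 CPM in M04 and 194 and 235 CPM in M05. Both DMM values of Tgfbi exceeded both sham values, yet by little, with ratios of 0.06 and 0.28.

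Sparc, a collagen- and calcium-binding protein abundant in bone, was the most abundant of the 8 genes. It made up 0.294% of all counts for the sham side of M04 (0.291 to 0.297, a 95% Wilson interval) and 0.449% for its DMM side (0.446 to 0.453). In M05 its share was 0.203% (0.201 to 0.205) in the sham and 0.254% (0.252 to 0.257) in the DMM knee. On the CPM scale, sham and DMM values were 2807 and 3986 in M04, and 2307 and 2654 in M05. Within each mouse the DMM knee was higher, with ratios of 0.51 and 0.20, but the DMM knee of M05 was below the sham knee of M04.

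The small proteins Dpt and Clec3b had higher values in the DMM knee of both mice. Dpt, dermatopontin, had 47 and 270 counts in the sham and DMM knee of M04, against 44 and 109 for M05. This was 3.48 and 18.1 CPM in M04 and 2.58 and 8.95 CPM in M05, with both DMM knees above both sham knees. Its ratios were 2.33 and 1.74. Clec3b encodes tetranectin, a plasminogen-binding lectin-like protein found in many mesenchymal tissues. It had 27.5 and 103 estimated counts in M04, and 14 and 67 in M05, or 2.04 and 6.89 CPM and 0.821 and 5.50 CPM. The DMM knees were again both above the sham knees, at ratios of 1.69 (M04) and 2.55 (M05). Of Tnn, Dpt and Clec3b, Clec3b had the larger ratio in M05 and the others in M04.

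**Figure D2:**
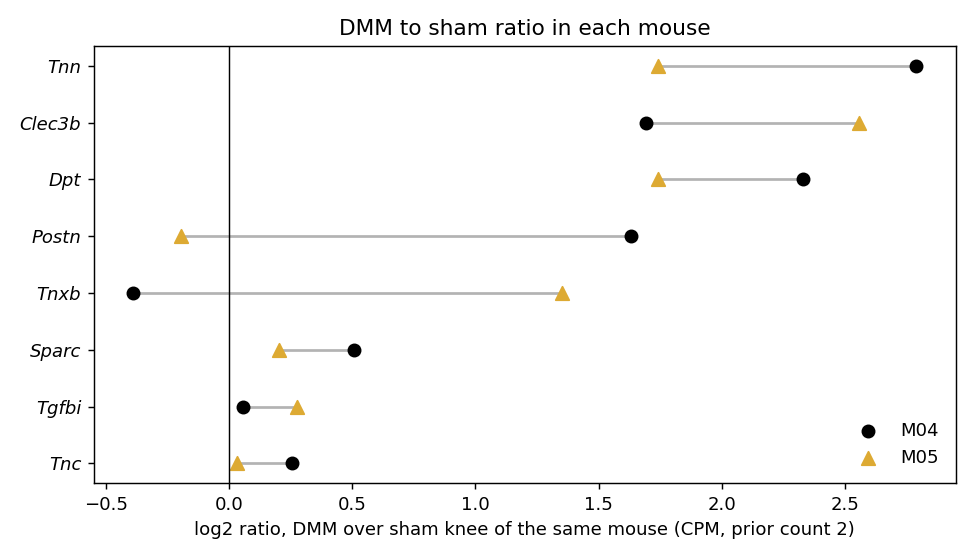
Log2 ratio of the DMM to the sham knee of the same mouse for each of the 8 genes (CPM with a prior count of 2); circles are M04, triangles M05, and a line joins the mice. Tnn, Clec3b and Dpt lie between 1.69 and 2.79 in both mice, while Postn and Tnxb lie on both sides of 0.

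In all, 3 of the 8 genes (Tnn, Dpt and Clec3b) reached a ratio of 1 (log2) or more in each mouse, as did 0.618% of all 13103 genes tested. In 4 of the 8 (these 3 and Tgfbi) both DMM libraries exceeded both sham libraries, as in 13.2% of all genes. In 2 of the 8 (Tnxb and Postn) the ratios had opposite signs, as in 52.9% of all genes. Since this contrast helped to choose the genes, nothing is read from these counts. An exact two-sided permutation test of 2 libraries against 2 that ignores the pairing of knees cannot give a p below 0.33. With the pairing kept there are fewer arrangements, so the smallest p is larger still.

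Promoter windows of 3 of these genes are shown because they represent the patterns seen: Tnn and Dpt, with high ratios in both mice, and Postn, high in M04. RefSeq windows of 300 bases (250 before to 50 after an annotated start, build GRCm38.p6) were matched by symbol for 7 of the 8 genes, 9 windows in all; Clec3b was not matched. These coordinates belong to GRCm38.p6, while GRCm39 is the build in the submitters' processing notes. Letters are 5′ to 3′ on the gene's strand, and capitals mark TATAAA in Postn and Dpt and, in Tnn, CATTCC read on the opposite strand. The Tnn window is chr1:160153526-160153825 (minus strand), that of Postn chr3:54360857-54361156 (plus strand) and that of Dpt chr1:164796413-164796712 (plus strand).
Tnn: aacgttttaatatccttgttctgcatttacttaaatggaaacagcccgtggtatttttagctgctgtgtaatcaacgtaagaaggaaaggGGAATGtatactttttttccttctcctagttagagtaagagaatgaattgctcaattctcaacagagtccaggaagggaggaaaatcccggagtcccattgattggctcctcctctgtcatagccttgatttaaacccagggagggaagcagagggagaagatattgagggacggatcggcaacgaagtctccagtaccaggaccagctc
Postn: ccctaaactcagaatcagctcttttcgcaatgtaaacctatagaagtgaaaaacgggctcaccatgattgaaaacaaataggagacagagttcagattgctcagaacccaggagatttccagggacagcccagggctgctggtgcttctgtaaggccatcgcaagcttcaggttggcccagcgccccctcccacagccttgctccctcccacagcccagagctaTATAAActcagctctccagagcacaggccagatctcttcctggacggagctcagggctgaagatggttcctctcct
Dpt: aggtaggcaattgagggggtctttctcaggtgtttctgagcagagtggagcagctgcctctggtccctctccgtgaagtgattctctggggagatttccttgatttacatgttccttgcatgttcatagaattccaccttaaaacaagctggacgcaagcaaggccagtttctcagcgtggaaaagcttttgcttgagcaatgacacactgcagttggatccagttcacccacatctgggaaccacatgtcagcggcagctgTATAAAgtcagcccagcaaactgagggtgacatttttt

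TATAAA, searched on both strands, began at -26 from the annotated start in this Postn window and at 13 in that of Dpt. It occurred in 4 of the 9 windows, the others being both windows of Tnc, which overlap, and in 13.6% of all 32851 windows of that length. No TATAAA lay in the Tnn window. The MCAT motif (CATTCC) was found in the Tnn window at -160 and in no other of the 9, against 14.7% of all windows. The AP-1 motif (TGANTCA) was found in Tnxb at -55 only, against 7.81%, and the RUNX motif (TGTGGT) in 2 windows, those of Dpt and Sparc, against 16.8%. The SMAD motif (GTCTG) was found in 6 windows, against 49.6%, the GC box (GGGCGG) in 3, against 35.7%, and the CArG box in 0, against 1.63%. All were searched on both strands, and GTCTG, the shortest motif, is the one most often met. None of these motifs was common to the windows of Tnn and Dpt. Such matches describe letters in these windows and say nothing on which factors act there.

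The mice differed most in their response for Postn and Tnxb. The DMM to sham ratio in M04 minus that in M05 was 1.82 on the log2 scale for Postn and -1.74 for Tnxb. It was 1.05 for Tnn, 0.59 for Dpt, 0.30 for Sparc, 0.22 for Tnc, -0.22 for Tgfbi and -0.86 for Clec3b. With 1 library per knee, a model with mouse and surgery leaves no degree of freedom for this difference. A fit with neither term, chosen after the values were seen, set DMM of M04 together with sham of M05 against the other 2 libraries. None of the 8 genes passed in it (edgeR quasi-likelihood test), with an adjusted p of 0.9998 each, and 0.0153% of all genes did. None had an unadjusted p under 0.05 either, the smallest being 0.0512 for Postn, from the same edgeR fit across all genes. That fit leaves the effects of mouse and surgery in the spread and is built from the values that helped to choose the genes, so not passing it shows nothing about whether the mice responded alike. All 8 skeletal muscle markers had positive ratios in M04 and none did in M05, with a summed level of 164 and 421 CPM in the sham and DMM knee of M04, against 581 and 178 CPM for M05. Their part in the Postn and Tnxb values was not tested. The 7 macrophage markers showed a sum of 937 and 912 CPM in M04 and 883 and 859 CPM in M05, near level in both mice.

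**Figure D3:**
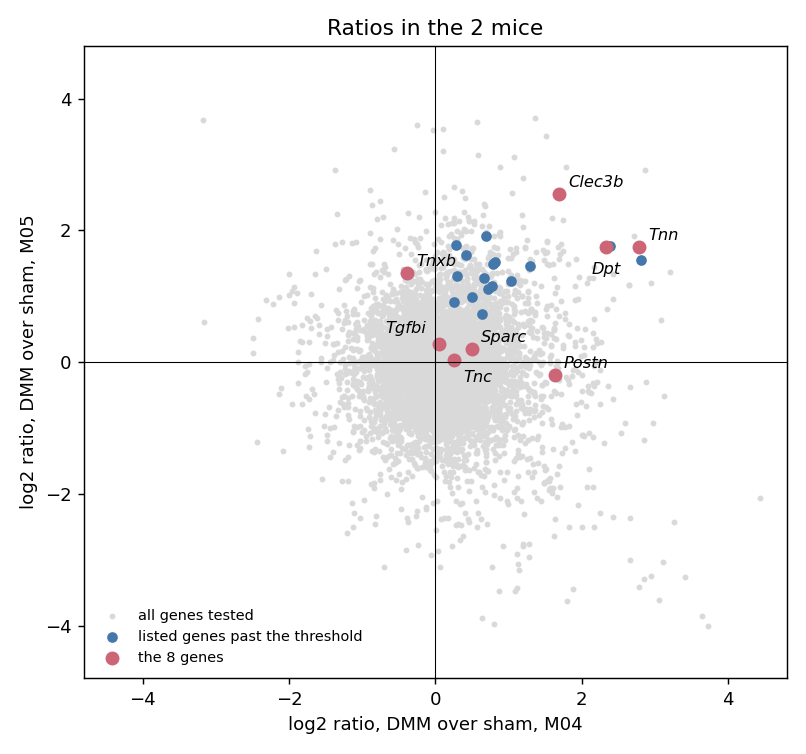
Log2 DMM to sham ratio in M04 (x axis) against M05 (y axis) for all genes tested (grey), the 16 listed genes outside the group that passed the threshold (blue) and the 8 genes (red). Tnn, Dpt and Clec3b lie in the upper right, Postn lies at 1.63 on the x axis and -0.19 on the y axis, and Tnc, Tgfbi and Sparc lie within the grey cloud.

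The difference between the mice over both knees was not the contrast used to choose the genes, and it was tested. It comes from the same 4 libraries, so a single high DMM library bears on both contrasts, and the test is not free of the choice. With a single mouse on each side, the SE and p-values hold no spread between animals. Tnn was lower in M05 by edgeR's quasi-likelihood test with surgery in the model, at a log2 difference of -1.81 (SE 0.44, adjusted p = 0.00550), with means of 7.44 CPM in M04 and 1.82 CPM in M05. It was the 1 member of 8 that passed, where 1.64% of all genes passed as lower in M05 and 2.6% in either direction. M05 was below M04 in both kinds of knee, by -1.22 on the log2 scale between sham knees and -2.19 between DMM knees. The sham knee of M04 (1.78 CPM) was nonetheless below the DMM knee of M05 (2.87 CPM). Leaving out a library, which also meant a fit with no surgery term, lost the call each time. The difference was then -0.0019 with DMM of M04 left out, -1.38 with sham of M05, -2.89 with sham of M04 and -3.28 with DMM of M05 left out. With all 4 libraries and no surgery term it was -2.09 (edgeR adjusted p = 0.571), and DESeq2 gave Tnn no adjusted p. The adjusted p-values of edgeR were 0.00614 without the filter, 0.00632 without robust moderation and 0.0183 with RLE scaling, and over all alternatives, limma included, they ran from 0.00614 to 0.9998.

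The other 7 members did not pass, and 6 of them had negative differences. Tnxb stood at -1.24 (SE 0.42, adjusted p = 0.0878 by edgeR) and Tnc at -0.43 (SE 0.15, adjusted p = 0.102 by edgeR). The differences were -0.89 for Postn, -0.77 for Dpt, -0.73 for Clec3b and -0.44 for Sparc, with adjusted p-values from 0.192 for Dpt to 0.493 for Clec3b in the same edgeR fit. Tgfbi was at 0.13 (adjusted p = 0.792 by edgeR). In Tnc, Tnxb and Sparc both M05 libraries lay below both M04 libraries, as in 22.8% of all genes. Of the 10 chondrocyte markers 7 passed as lower in M05 by edgeR and 1 was called by DESeq2, with a sum of 4186 and 4886 CPM in M04 against 1007 and 3517 CPM in M05, and their part in these differences was not tested.

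**Figure D4:**
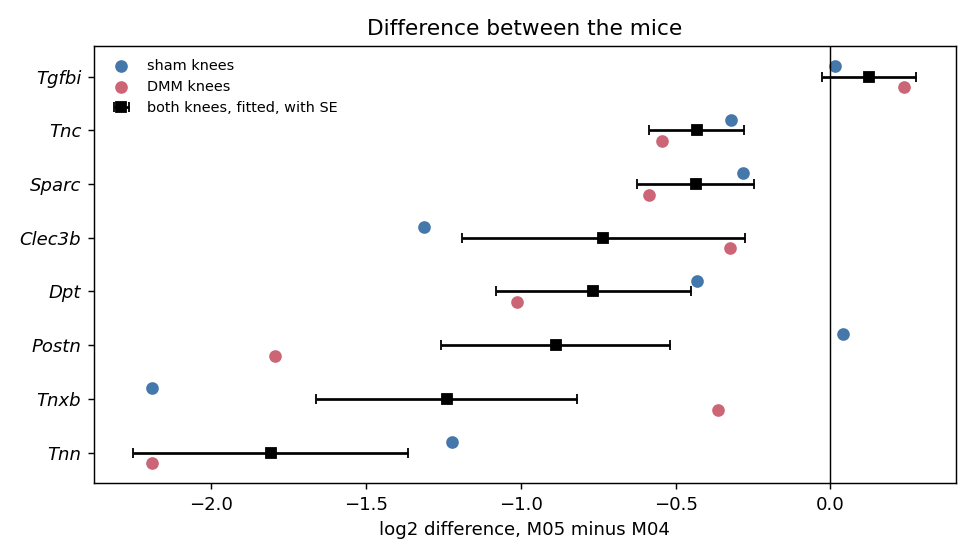
Log2 difference, M05 minus M04, for each of the 8 genes: squares with bars give the fitted value over both knees with its standard error, and dots give the sham knees and the DMM knees alone. Tnn is at -1.81, and the Postn dots lie apart, at 0.04 for sham and -1.79 for DMM knees.

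Genes that work with these proteins were read from lists of relatives, other matricellular proteins, receptors, matrix partners, inducers and proteases, chosen with earlier results of these data known. Of 92 such genes 82 were tested in the edgeR fit of DMM against sham, which held a term for the mouse. Of these, 16 were higher past an adjusted p of 0.05 and 0 were lower, while 31 were higher and 1 lower at an unadjusted p under 0.05. The median log2 fold change was 0.29 over the 82 genes and -0.01 over all genes tested, and 0.633% of all genes were called higher and 0.649% in either direction. All 16 had the same sign in both mice, where 52.9% of all genes had ratios of opposite sign. Passing this fit favours genes that changed alike in both mice, so nothing is read from that count. Of the 16, 14 had the larger ratio in M05. DESeq2 called 6 of the listed genes, namely Col3a1, Col6a1, Col6a2, Dcn, Fn1 and Htra1. In the fit with no mouse term 0 of the 16 calls were kept, at log2 fold changes from 0.50 for Ctgf to 2.67 for Mmp3. The fits with a library left out had no mouse term either, and kept 0 calls with DMM of M04 left out, 0 with sham of M05, 1 with DMM of M05 (Col3a1) and 15 with sham of M04 left out. The fold changes ran from 0.26 to 1.45 without the DMM library of M04 and from -0.03 to 2.37 without the sham library of M05. Without the sham library of M04 they ran from 0.95 to 3.02. Chondrocyte markers, whose sum had a log2 ratio of 0.22 in M04 and 1.80 in M05, were lowest in the sham library of M05 as well, and their part in the values of the listed genes was not tested. Between the mice, 16 of the 82 genes were lower in M05 and 0 higher by edgeR (32 and 1 at an unadjusted p under 0.05), 8 of them among the 19 matrix partners, and DESeq2 called 5. With 1 library left out, that comparison gave 0 to 256 calls over all genes in place of 341.

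The relatives of the members were partly higher. Of 8 tested, 3 rose and 0 fell. Clec3a, the cartilage relative of tetranectin, rose by 0.80 (SE 0.16, adjusted p = 0.000164 by edgeR), with 183 and 225 CPM in M04 and 78.4 and 194 CPM in M05. Smoc2, a calcium-binding protein of the SPARC family, rose by 0.92 (SE 0.18). It had 31.0 and 51.4 CPM in the sham and DMM knee of M04, and 15.6 and 33.9 CPM in those of M05. Clec11a, a secreted lectin-like growth factor for bone-forming cells, rose by 0.69 (SE 0.19). With sham of M05 left out, Clec3a stood at 0.19 and Smoc2 at 0.46, and DESeq2 called 0 of the 8. Stab2, an endocytic receptor with fasciclin domains (-0.33), and Smoc1 (0.35) did not pass, each with an adjusted p of 0.9997 by edgeR. Tnr, the tenascin of the nervous system, was not tested, with 3, 1, 0 and 0 counts in the sham and DMM knee of M04 and of M05. Spock1, Spock2 and Spock3, further SPARC relatives, were too low as well, with 0 to 21 counts in a library.

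Of 12 other matricellular genes, 4 rose and 0 fell. Comp, a thrombospondin of cartilage and tendon, rose by 1.02 (SE 0.16) and Thbs3 by 0.96 (SE 0.25), each with a far smaller ratio in M04 (0.41 and 0.28) than in M05 (1.63 and 1.77). The CCN proteins Cyr61 and Ctgf, which bind integrins and respond to load and TGF-beta, rose by 1.15 (SE 0.27, adjusted p = 0.00636 by edgeR) and 0.58 (SE 0.16, adjusted p = 0.0380 by edgeR). With sham of M05 left out, Comp stood at 0.36, Ctgf at 0.05 and Thbs3 at -0.03. Cyr61 stood at 0.97 there and at 1.06 without the DMM library of M04, where Ctgf had 0.26 and Thbs3 0.30. DESeq2 called 0 of the 12. Wisp2 (0.73) and Spp1, osteopontin (0.38), did not pass.

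Matrix partners, the list with the most genes tested, held the most calls, with 7 of 19 higher and 0 lower. The shares were alike among relatives (3 of 8) and other matricellular genes (4 of 12), and 0.633% of all genes were called higher. Col3a1, the fibrillar collagen of repair tissue, rose by 2.08 (SE 0.16), with 75.6 and 394 CPM in M04 and 43.9 and 150 CPM in M05. Like Tnn and Dpt, it had the larger ratio in M04. The proteoglycan Fmod, which binds collagen, rose by 1.30 (SE 0.16), and the chains of collagen VI, a pericellular collagen, rose by 1.17 for Col6a2, 1.14 for Col6a1 and 0.96 for Col6a3. Dcn, the decorin to which dermatopontin binds, rose by 0.96 (SE 0.15, adjusted p = 5.37e-07 by edgeR), with 204 and 348 CPM in the knees of M04 and 146 and 325 CPM in those of M05. Fn1, fibronectin, rose by 0.74 (SE 0.16). With sham of M05 left out, Fmod stood at 0.49, Col6a1 at 0.57, Col6a2 at 0.59, Col6a3 at 0.29 and Fn1 at 0.24, while Dcn stood at 0.72 and Col3a1 at 1.85. Without the DMM library of M04, Col3a1 stood at 1.33, Dcn at 0.90, Fmod at 0.86, Fn1 at 0.37 and Col6a3 at 0.33. Lum (0.59) and Col12a1 (0.70) did not pass, with adjusted p-values of 0.0822 and 0.286 by edgeR.

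None of 15 receptor genes and none of 16 inducers tested passed in either direction by edgeR, and 0 did by DESeq2. At an unadjusted p under 0.05, edgeR had 1 receptor lower and 3 inducers higher. The nearest receptors were Itga4, an integrin chain of blood cells (-0.41, adjusted p = 0.578 by edgeR), and Egfr (0.89). The nearest inducers were the load-responsive cofactor Yap1 (0.98, adjusted p = 0.211 by edgeR) and the growth factor Tgfb2 (1.14, adjusted p = 0.578 by edgeR). The median was 0.07 for receptors and 0.03 for inducers. Of 12 proteases 2 rose and 0 fell, namely Htra1, a secreted serine protease (1.38, SE 0.20), and the stromelysin Mmp3 (2.46, SE 0.64). Without the DMM library of M04, Htra1 stood at 1.14 and Mmp3 at 1.45. Mmp3 was low, with 0.741 and 6.02 CPM in M04 and 0.469 and 1.64 CPM in M05. Mmp13 (0.53) and Mmp2 (0.50) did not pass.

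The genes with the most similar profile were found by the Euclidean distance between log2 CPM values over the 4 libraries, each centred on its own mean. Candidates were 9177 tested genes whose mean was 5 CPM or more. The members themselves, unnamed gene models and rows with duplicated values were left out. For Dpt the nearest candidates were Col3a1 (distance 0.38) and Htra1 (0.78), and for Tnn Col3a1 (0.60) and the potassium channel gene Kcna6 (1.27). For Clec3b they were Kcna6 (0.58) and Sbsn (0.73). Postn was nearest to Thbs2 (0.31), whose ratios were 1.20 (M04) and -0.16 (M05), and to Ak1 (0.47). Tnxb was nearest to Gpnmb (0.17), with ratios of -0.27 and 1.56, and to Car12 (0.34). Tnc, Tgfbi and Sparc, with ratios from 0.03 to 0.51 over both mice, had closer neighbours. These were B4galt1 and Bahd1 for Tnc (0.03 and 0.04), Ergic3 and Slc35f6 for Tgfbi (0.02 each), and Col4a2 for Sparc (0.06). With 4 libraries, the distances describe these libraries only.

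Markers of other cell types were summed in each library beside these genes. The 10 markers of fibroblasts and tendon cells summed to 101 and 106 CPM in the sham and DMM knee of M04 and to 102 CPM in both knees of M05. Of the 7 that could be tested 0 passed in either direction by edgeR or DESeq2, and 0 had an unadjusted p under 0.05. Pi16 gave the largest share of that sum, with ratios of -0.19 and -0.06. Over the 10 genes the median ratio was 0.44 in M04 and 0.18 in M05, with 8 and 6 positive ratios. The tendon genes Tnmd, Scx and Mkx had 0 counts in the sham knee of M04 and stayed below 1 CPM elsewhere, and Scx was at 0.669 CPM in the DMM knee of M04 and 0.903 CPM in that of M05. The part of these cells in the ratios of Tnn, Dpt and Clec3b was not tested. The 8 osteoblast markers, with Col1a1 as the largest share, summed to 6364 and 7015 CPM in M04 and 5202 and 5937 CPM in M05. The 5 endothelial markers summed to 120 and 116 CPM and to 87.2 and 95.3 CPM in the same order. By edgeR, 1 of 8 osteoblast, 1 of 5 superficial-zone and 1 of 5 mural markers passed as higher in DMM knees. Of the 10 chondrocyte markers 5 passed as higher in DMM knees by edgeR, as did 0.633% of all genes, and 0 by DESeq2. Their sum was higher in the DMM knee by 0.22 on the log2 scale in M04 and by 1.80 in M05, and its part in the members' ratios was not tested. The superficial-zone markers, Prg4 among them, showed 0.05 and 1.19 in the same order.

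**Figure D5:**
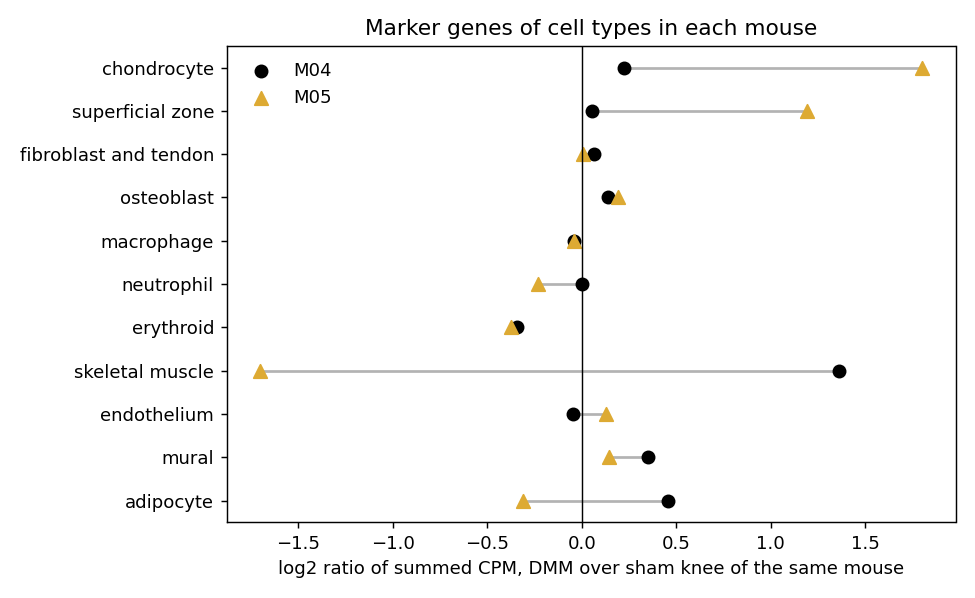
Log2 ratio of the summed CPM of each marker list, DMM over sham knee of the same mouse; circles are M04, triangles M05. The fibroblast and tendon sum, of which Pi16 is the largest share, lies at 0.07 and 0.01 (median of its genes 0.44 and 0.18), the chondrocyte sum at 0.22 and 1.80, and the skeletal muscle sum at 1.36 and -1.70.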

How the data were processed

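Poly(A) RNA was sequenced as single-end reads of 100 bases, per the labels' protocols, with GRCm39 as the build per the submitters' processing notes; no source used here gives the aligner, the counting method or the strandedness. The authors deposited estimated counts per gene, 9.21% to 10.9% of them not whole in a library, and a table of FPKM. Each library has 2 columns in the deposited count table with equal values in all 24421 rows, and was used once.

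Rounded counts entered edgeR 4.0.16 under R 4.3.3 (filterByExpr, TMM, robust quasi-likelihood fit, Benjamini-Hochberg adjustment over the 13103 genes tested, threshold 0.05), with mouse and surgery as terms. The labels state that both knees come from 1 animal, and the pairing showed a correlation of 0.126, across genes, between the deviations of a mouse's 2 libraries from their group means. The fit has 1 residual degree of freedom, and for 83.0% of genes the spread came from the trend across genes, so p-values there do not rest on the gene's own spread between mice. Standard errors were derived from each log2 fold change and its F statistic. Within-mouse ratios use CPM with a prior count of 2. DESeq2 1.42.0 and limma 3.58.1 on log2(FPKM + 1) and log2(FPKM + 0.1) served as alternatives, beside other scaling, filters and terms, and each library left out. The procedure was run on simulated counts with planted surgery differences and no difference between mice. That run therefore does not check the p-values for mice that differ.

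The members and gene lists were chosen with earlier results of these data known. Named were all members, every listed gene past the threshold, the 2 with the next smallest p in each list, and the 2 genes most like each member, of which 1 is not reported here; marker genes and genes too low to test were named after their values were seen. Promoter sequences are from RefSeq (GRCm38.p6). The overlap with other genes is from the GENCODE annotation of GRCm38.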

Additional observations from a re-analysis of the deposited data

Results flagged for a closer look

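Postn and Tnxb had DMM to sham ratios of opposite sign in the 2 mice, which is why they are listed here. For Postn the log2 ratio was 1.63 in M04 and -0.19 in M05, with the DMM knee of M04 as the high library. For Tnxb it was -0.39 in M04 and 1.35 in M05, with the sham knee of M05 as the low library. Opposite signs occurred in 52.9% of all 13103 genes tested. No test bears on these differences: the fit without mouse and surgery terms, chosen after the values were seen (edgeR, adjusted p = 0.9998 for both genes), leaves both effects in the spread, and the genes were picked for this pattern.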

How the results depend on the processing

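For DMM against sham the 85 calls (83 higher) became 13 with DESeq2 and 35 with RLE scaling. They became 1 with limma on log2(FPKM + 1) and also 1 on log2(FPKM + 0.1), with 0 higher in DMM knees in either. Without the mouse as replicate block edgeR gave 0 (322 at an unadjusted p under 0.05). Leaving out 1 library, in fits with surgery only, gave 0 to 109 calls. For M05 against M04 the 341 calls became 57 with DESeq2 and 186 with RLE scaling. Limma on FPKM gave 0 with either pseudocount (1369 and 1378 at an unadjusted p under 0.05), edgeR on the mouse alone, with surgery dropped (the setting with no replicate block), gave 0 (1819 unadjusted), and leaving out 1 library, also with surgery dropped, gave 0 to 256. The 16 listed genes called became 6 with DESeq2 and 0 with no replicate block (18 unadjusted by edgeR). The counts stayed within 1.5 times with no filter, with a mean of at least 5 CPM and without robust moderation. The lone library of an arm was assumed to vary like the others in these fits. With 1 library left out, the DMM to sham value ran from -0.13 to 0.41 for Tnc, from -0.56 to 1.62 for Tnxb, from -0.17 to 1.62 for Postn and from -0.032 to 2.23 for Thbs3. It kept its sign for Tnn (1.20 to 3.39), Dpt (1.57 to 2.58), Clec3b (1.58 to 2.91), Sparc (0.06 to 0.64) and Tgfbi (0.05 to 0.29). For Tnn, Dpt, Clec3b and Tgfbi both DMM libraries exceeded both sham libraries. Leaving out 1 library could thus hardly change their sign, and nothing is read from its being kept. The M05 minus M04 value ran from -0.014 to 0.26 for Tgfbi, from -2.07 to 0.70 for Dpt and from -2.44 to 0.57 for Clec3b. Postn passed as lower in M05 without robust moderation (adjusted p = 0.00115 by edgeR). For Tnn, on log2(FPKM + 1) the DMM to sham ratio fell to 1.32 in M04 and 0.42 in M05, since the pseudocount exceeds its sham levels. The cause of the other changes was not tested. Low counts limit Tnn, Clec3b, Dpt and Tnxb, with 13 to 94 counts in sham knees.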
